A study of Mus musculus with 15 samples.

Results

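The 8 genes described here set the pace of entry into the cell cycle, and their accessibility was followed through 15 libraries of ATAC-seq, an assay in which a transposase cuts into open chromatin so that reads pile up over accessible DNA. They were the cyclin genes Ccnd1, Ccnd2 and Ccne1, the growth regulator Myc, the inhibitor genes Cdkn1a, Cdkn2a and Cdkn2b, and the p53 regulator Mdm2. A region of the deposited matrix was counted to one of them when its midpoint lay in the gene's RefSeq body (mouse build mm10) or when that body was the nearest of a protein-coding gene within 50 kb. This gave 8 genes of 16723 protein-coding genes with a region, and 55 of the 93215 regions outside the mitochondrial chromosome. Levels are nuclear RPM, that is a region's reads scaled to 1000000 reads over the nuclear regions of the library, and a gene's level is the sum over its regions. This is accessibility and not expression, and sums of different genes cover different lengths, so no gene is compared with another by level. Differences are log2 differences of log2(nuclear RPM + 1), given ± SE, with p adjusted by Benjamini-Hochberg over all genes or all regions tested, from limma.

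The 5 groups held 3 libraries each and came from mouse liver. They were reprogrammed hepatocytes, biliary cells and hepatocytes from mice treated with DDC, and biliary cells and hepatocytes labelled untreated. The labels do not spell out DDC, in liver research the usual name of diethoxycarbonyl-dihydrocollidine, a feed additive that injures bile ducts. All cells were sorted from the organ and kept out of culture. The sources used here give neither the sort markers nor how reprogrammed hepatocytes were recognised, and no strain, age, dose or duration. Since no label ties the 3 libraries of a group to separate animals, the p-values reflect only variation among these libraries, and that may be technical. In sorted bulk cells, fewer cells of a type and less accessibility per cell cannot be told apart.

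Depth differed between groups. Nuclear reads ranged from 4756891 to 9829886 in reprogrammed cells, from 5151190 to 10395918 in DDC biliary cells, from 1191409 to 2342643 in DDC hepatocytes, from 2439831 to 4389653 in untreated biliary cells and from 201705 to 605309 in untreated hepatocytes. In the shallowest untreated hepatocyte library 1 read was worth 4.96 nuclear RPM, so low regions cannot be resolved there. The 10 biliary markers (such as Krt19, Epcam and Sox9) summed to 997.4 to 1183.3 nuclear RPM in reprogrammed cells, 1642.9 to 1850.9 in DDC biliary cells, 329.9 to 495.2 in DDC hepatocytes, 1353.0 to 1582.8 in untreated biliary cells and 370.1 to 510.6 in untreated hepatocytes. Among these 10, 9 were higher and 0 lower in reprogrammed cells than in DDC hepatocytes, where 16.7% of all genes were higher and 10.6% lower. In reprogrammed cells 8 were lower than in DDC biliary cells, where 3.53% of all genes were lower. The 9 hepatocyte markers with a region (such as Alb, Ttr and Hnf4a; Serpina1a was at 0) summed to 398.4 to 831.8 in reprogrammed cells, 261.4 to 470.8 in DDC biliary cells, 2166.4 to 2705.9 in DDC hepatocytes, 328.0 to 739.8 in untreated biliary cells and 2567.4 to 3449.5 in untreated hepatocytes. All 9 were lower in reprogrammed cells than in DDC hepatocytes, where 10.6% of all genes were lower.

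Markers of other liver cells also differed. The 5 stellate and mesenchymal markers, none of them at 0, summed to 157.0 to 190.9 nuclear RPM in reprogrammed cells, 154.3 to 169.3 in DDC biliary cells, 63.2 to 94.8 in DDC hepatocytes, 102.0 to 111.1 in untreated biliary cells and 55.4 to 79.3 in untreated hepatocytes. The 5 endothelial markers summed to 111.6 to 166.1 in reprogrammed cells, 105.2 to 124.3 in DDC biliary cells, 158.6 to 184.4 in DDC hepatocytes, 69.3 to 96.7 in untreated biliary cells and 104.1 to 149.0 in untreated hepatocytes. Of 5 macrophage markers Adgre1, Clec4f and Cd5l were at 0 in every group, and the other 2 summed to 88.9 to 114.4, 96.9 to 117.2, 85.7 to 147.7, 92.7 to 102.9 and 51.2 to 59.6 in those 5 groups in the same order. Lymphocyte markers, with Cd79a at 0 throughout, summed to 12 to 21.6, 16.7 to 20.5, 17.5 to 37.8, 11.2 to 22.7 and 47.9 to 79.3. Between DDC and untreated biliary cells 2 of 5 endothelial, 2 of 5 stellate and mesenchymal and 1 of 4 tested lymphocyte markers were higher, as were 4 of 10 biliary markers with 1 lower, where 14.2% of all genes were higher and 13.1% lower. Between reprogrammed cells and DDC hepatocytes 2 of 5 stellate and mesenchymal markers were higher, and of 5 endothelial markers 1 was higher and 2 lower. Of 4 tested lymphocyte markers 2 were higher and 1 lower, and 0 of 2 macrophage markers were called. Over all genes 16.7% were higher and 10.6% lower in that comparison. The part of these other liver cells in the differences described here was not tested.

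A cell passes from G1 into S phase when D-type cyclins with CDK4 or CDK6, and then cyclin E with CDK2, phosphorylate the retinoblastoma protein and set E2F factors free. The INK4 proteins p16 and p15 block the D-type kinases, p21 blocks cyclin E and CDK2, and p19ARF holds back Mdm2, the ligase that marks p53 for destruction. Myc raises the transcription of many growth genes. In injured liver, biliary cells and hepatocytes that leave quiescence use this machinery, and its inhibitors mark senescent cells.

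The promoters of the Cdkn2a and Cdkn2b genes are shown because the regions that cover them differed between groups. Each window runs from 250 bases before to 50 bases after a RefSeq transcription start (build GRCm38.p6, minus strand, read 5′ to 3′ along the gene). Capitals mark matches, on either strand, to the E2F letters GCGGGAA and the GC box letters GGGCGG.
Cdkn2a upstream promoter, p19ARF transcript, chr4:89294570-89294869: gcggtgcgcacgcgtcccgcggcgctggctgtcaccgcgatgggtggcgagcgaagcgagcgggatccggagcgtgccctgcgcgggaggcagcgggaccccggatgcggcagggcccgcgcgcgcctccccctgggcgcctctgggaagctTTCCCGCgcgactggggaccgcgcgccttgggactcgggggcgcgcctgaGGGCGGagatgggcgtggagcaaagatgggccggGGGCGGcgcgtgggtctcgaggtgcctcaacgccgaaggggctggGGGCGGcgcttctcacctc
Cdkn2a inner promoter, p16INK4a transcript, chr4:89282143-89282442: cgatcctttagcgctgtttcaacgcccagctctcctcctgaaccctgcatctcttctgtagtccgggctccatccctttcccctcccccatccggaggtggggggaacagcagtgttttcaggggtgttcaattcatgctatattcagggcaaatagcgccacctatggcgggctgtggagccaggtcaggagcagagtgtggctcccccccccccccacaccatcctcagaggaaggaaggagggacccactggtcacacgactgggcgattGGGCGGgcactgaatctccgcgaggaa
Cdkn2b promoter, chr4:89310983-89311282: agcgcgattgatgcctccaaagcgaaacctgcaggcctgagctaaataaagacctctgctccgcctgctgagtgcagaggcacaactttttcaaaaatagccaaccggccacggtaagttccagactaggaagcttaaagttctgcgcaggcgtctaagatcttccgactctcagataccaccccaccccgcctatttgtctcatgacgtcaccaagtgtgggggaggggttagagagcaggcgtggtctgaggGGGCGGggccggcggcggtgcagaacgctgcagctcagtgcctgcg
The p19ARF window had 77.0% G and C, 45 CpG dinucleotides, 1 E2F match and 3 GC boxes. The p16INK4a window had 60.3% G and C, 12 CpG dinucleotides and 1 GC box. The Cdkn2b window had 57.7%, 18 CpG dinucleotides and 1 GC box. Over 32851 promoters of the same length in the RefSeq table the medians were 52.7% and 7 CpG dinucleotides, 4.6% held an E2F match and 35.7% a GC box. These letters are a description of the windows and not evidence of binding. Promoters in that table were matched for 5 of the 8 genes (Cdkn2a, Cdkn2b, Ccne1, Mdm2 and Cdkn1a).

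Reprogrammed cells differed from DDC hepatocytes at the 3 cyclin genes, and all 3 were higher. Of the 8 genes 3 passed and 0 were lower, against 27.3% of all 16382 genes tested that were called in either direction and 16.7% called higher and 10.6% lower (limma with Benjamini-Hochberg adjustment, adjusted p under 0.05). The median log2 difference was 0.37 over the 8 genes and 0.12 over all genes. DDC biliary cells were higher than DDC hepatocytes at 4 of the 8 genes and lower at 0, against 40.7% of all genes called in either direction, 22.6% higher and 18.1% lower. Among DDC biliary cells and untreated biliary cells, 4 of 8 genes were higher after DDC and 0 lower, where 27.3% of all genes were called, 14.2% higher and 13.1% lower. Between reprogrammed and DDC biliary cells 2 of 8 passed, 1 in each direction, where 6.79% of all genes were called, 3.26% higher and 3.53% lower. On the deposited scale, which keeps mitochondrial reads in the total, 90.1% of all calls between reprogrammed cells and DDC hepatocytes were higher, against 61% on the nuclear scale, and 7 of the 8 genes passed. For DDC biliary cells against DDC hepatocytes the share of higher calls was 83.8% against 55.6%, and for DDC against untreated biliary cells 78.2% against 52.2%. Mitochondrial regions held on average 9.24% of reads in reprogrammed cells, 9.86% in DDC biliary cells, 34.1% in DDC hepatocytes, 18.7% in untreated biliary cells and 76.6% in untreated hepatocytes.

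**Figure D1:**
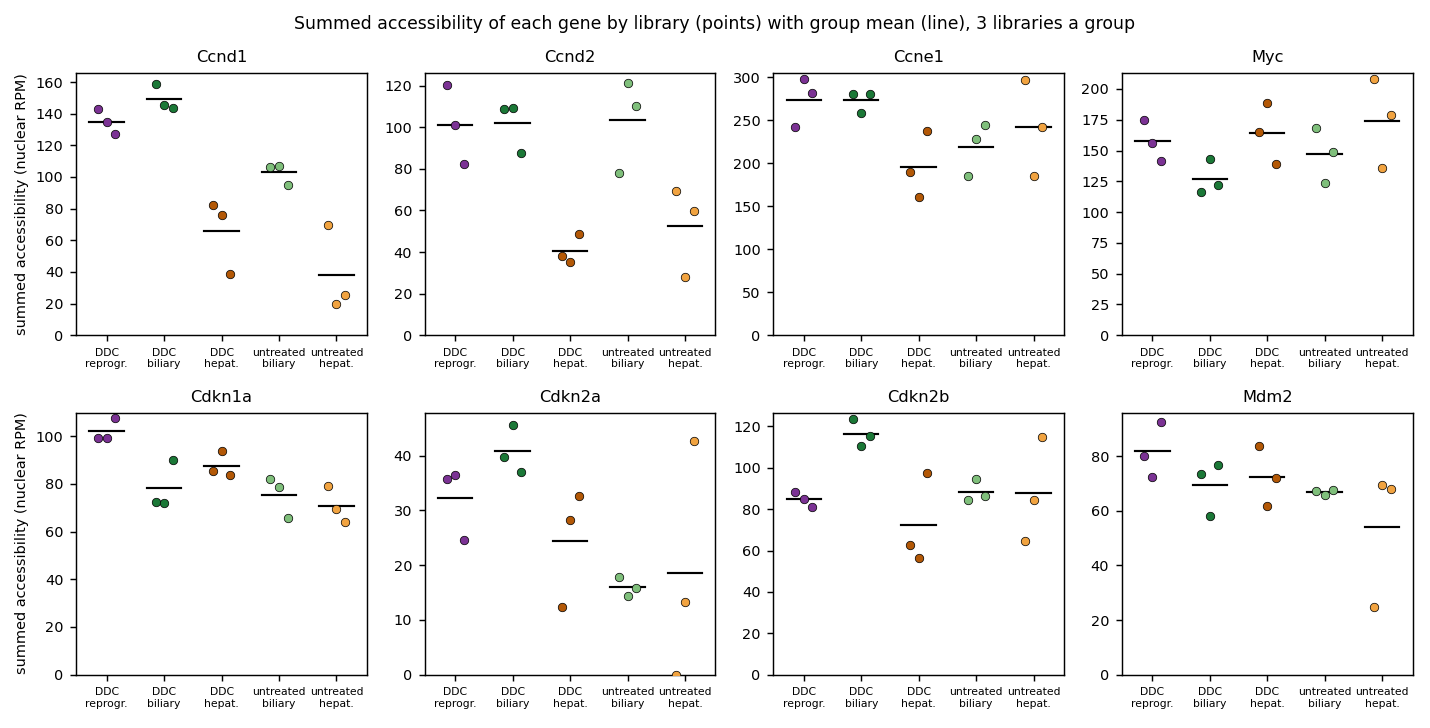
Summed accessibility of each of the 8 genes in nuclear RPM (linear axes from 0), 1 point a library and a line at the group mean, for reprogrammed cells, DDC biliary cells and DDC hepatocytes, then untreated biliary cells and hepatocytes. Ccnd1 lies between 127.4 and 158.6 in all reprogrammed and DDC biliary libraries and between 38.6 and 82.4 in DDC hepatocytes, while Myc and Mdm2 overlap across most groups.

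Ccnd1 (gene ID 12443, chromosome 7, 144929931 to 144939831) encodes cyclin D1, the D-type cyclin that responds to growth signals. Its summed level in libraries 1 to 3 was 143.1, 134.6 and 127.4 nuclear RPM in reprogrammed cells and 158.6, 145.4 and 143.8 in DDC biliary cells, against 82.4, 75.7 and 38.6 in DDC hepatocytes. It was 106.5, 107.0 and 95.2 in untreated biliary cells and 69.4, 19.8 and 25.5 in untreated hepatocytes. The 3 groups of reprogrammed and biliary cells did not overlap with either group of hepatocytes, and the hepatocyte groups overlapped with each other. The log2 difference was 1.10 ± 0.21 (SE, n = 3 per group, adjusted p = 0.000303) for reprogrammed cells against DDC hepatocytes and 1.25 ± 0.19 (adjusted p = 8.04e-06) for DDC biliary cells against DDC hepatocytes. DDC biliary cells were also higher than untreated ones by 0.53 ± 0.15 (adjusted p = 0.0083), a call that ended without library weights (adjusted p = 0.513) and without untreated biliary library 3 (adjusted p = 0.0797). Untreated biliary cells exceeded untreated hepatocytes by 1.61 ± 0.39 (adjusted p = 0.00711), which ended without untreated hepatocyte library 2 (adjusted p = 0.142) or 3 (adjusted p = 0.0542).

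In the comparisons with DDC hepatocytes, 2 regions far from Ccnd1 passed. The first (chromosome 7, 144970773 to 144972418) has its midpoint 31.8 kb beyond the higher-coordinate end of the gene. It held 46.5, 40.3 and 45.6 nuclear RPM in reprogrammed cells and 55, 48.5 and 63.5 in DDC biliary cells, against 12, 0.958 and 1.68 in DDC hepatocytes. Untreated biliary cells lay between these groups at 20.4, 21.7 and 15.5, and untreated hepatocytes held 2 reads in all. Its log2 difference on the log2(RPM + 1) scale was 3.46 ± 0.44 (adjusted p = 6.86e-07) for reprogrammed cells and 3.79 ± 0.41 (adjusted p = 8.71e-09) for DDC biliary cells, both against DDC hepatocytes, and both passed under all 24 alternatives run. DDC biliary cells exceeded untreated biliary cells by 1.49 ± 0.36 (adjusted p = 0.00216, but 0.401 without library weights). The second region (144981135 to 144983212, 42.3 kb away) averaged 18.4 ± 5.13 in reprogrammed cells and 22.4 ± 4.83 in DDC biliary cells, against 1.70 ± 1.71 nuclear RPM in DDC hepatocytes (SD, n = 3). Its differences from DDC hepatocytes were 3.06 ± 0.47 (adjusted p = 1.13e-05) in reprogrammed cells and 3.34 ± 0.44 (adjusted p = 2.29e-07) in DDC biliary cells.

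The region over the higher-coordinate end of Ccnd1 (144937320 to 144943815), which held 51.8% of the gene's mean sum, averaged 63.3 ± 6.83 in reprogrammed cells, 60.4 ± 7.37 in DDC biliary cells and 44.8 ± 16.1 nuclear RPM in DDC hepatocytes and passed in neither comparison with DDC hepatocytes. It did pass between the untreated groups, at 59.4 ± 1.75 in untreated biliary cells and 26.6 ± 20.0 in untreated hepatocytes (1.36 ± 0.45, adjusted p = 0.0445). That call ended with only the groups compared (adjusted p = 0.102), without untreated biliary library 2 (adjusted p = 0.0676) or 3 (adjusted p = 0.0762), and without untreated hepatocyte library 2 (adjusted p = 0.344) or 3 (adjusted p = 0.184). With only the regions in the body or within 1 kb of its ends, the Ccnd1 difference was 0.35 (adjusted p = 0.266) for reprogrammed cells and 0.33 (adjusted p = 0.215) for DDC biliary cells against DDC hepatocytes. Within that window the difference between DDC and untreated biliary cells was -0.02 (adjusted p = 0.941).

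Ccnd2 (gene ID 12444, chromosome 6, 127125162 to 127152188) encodes cyclin D2, a second partner of CDK4 and CDK6. Its level was 120.3, 101.0 and 82.2 nuclear RPM in reprogrammed cells and 108.8, 109.3 and 87.7 in DDC biliary cells, against 38.0, 35.0 and 48.7 in DDC hepatocytes. Untreated biliary cells had 78.2, 121.3 and 110.3 and untreated hepatocytes 69.4, 28.1 and 59.6. The reprogrammed and both biliary groups overlapped with one another and lay above both hepatocyte groups. The log2 difference from DDC hepatocytes was 1.30 ± 0.22 (adjusted p = 9.38e-05) in reprogrammed cells and 1.32 ± 0.20 (adjusted p = 8.11e-06) in DDC biliary cells, and both passed under all 27 alternatives run. The difference between DDC and untreated biliary cells was -0.0019 ± 0.16 (adjusted p = 0.995).

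The Ccnd2 difference from DDC hepatocytes lay mainly at the gene's higher-coordinate end, named by coordinate because no promoter was matched for this gene. A region of 8452 bp over its higher-coordinate end (chromosome 6, 127147536 to 127155988) held 80.4% of the mean sum, and averaged 81.2 ± 18.0 nuclear RPM in reprogrammed cells and 82.4 ± 13.5 in DDC biliary cells, against 28.2 ± 7.59 in DDC hepatocytes. Its log2 difference from DDC hepatocytes was 1.5 ± 0.24 (adjusted p = 1.68e-05) in reprogrammed cells and 1.53 ± 0.22 (adjusted p = 1.15e-06) in DDC biliary cells. A smaller region 10.9 kb beyond that end (127162624 to 127163485) was 1 of the regions that followed DDC in biliary cells: it held 10, 9.32 and 9.28 nuclear RPM in DDC biliary cells, against 0.756, 2.46 and 1.59 in untreated ones, a difference of 2.07 ± 0.39 (adjusted p = 0.000149, but 0.11 without library weights). Reprogrammed cells held 12.3, 14.9 and 6.94 there, against 5.98, 2.39 and 1.68 in DDC hepatocytes. That difference was 1.57 ± 0.48 (adjusted p = 0.0114), and it ended without reprogrammed library 1 (adjusted p = 0.0513), without DDC hepatocyte library 2 (adjusted p = 0.0842) and without weights (adjusted p = 0.127).

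Ccne1 (gene ID 12447, chromosome 7, 38097984 to 38107490) encodes cyclin E1, the partner of CDK2 at the start of S phase. Its summed level was 242.0, 298.0 and 281.5 nuclear RPM in reprogrammed cells and 280.7, 258.2 and 280.6 in DDC biliary cells, against 190.0, 160.9 and 237.5 in DDC hepatocytes. Untreated biliary cells had 184.8, 228.7 and 244.9 and untreated hepatocytes 297.5, 185.0 and 242.7, so untreated hepatocytes overlapped with every other group. The difference from DDC hepatocytes was 0.49 ± 0.15 (adjusted p = 0.0175) in reprogrammed cells and 0.49 ± 0.14 (adjusted p = 0.00582) in DDC biliary cells, and DDC biliary cells exceeded untreated ones by 0.32 ± 0.11 (adjusted p = 0.0283). These small calls were fragile. In reprogrammed cells the call ended without DDC hepatocyte library 1 (adjusted p = 0.0796) or 2 (adjusted p = 0.24), and in DDC biliary cells without DDC hepatocyte library 2 (adjusted p = 0.159). The call between DDC and untreated biliary cells ended without DDC biliary library 1 or 3 or untreated biliary library 1 or 2 (adjusted p 0.0783 to 0.144), and all 3 ended without library weights (adjusted p 0.0546 to 0.399). With edgeR the call in reprogrammed cells had an adjusted p of 0.0598 and that between biliary groups 0.118.

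Single regions around Ccne1 moved more than the sum. The gene lies on the minus strand, and the region 4.76 kb upstream of it (chromosome 7, 38111773 to 38112721) held 11.3, 9.56 and 17.2 nuclear RPM in reprogrammed cells, 36.1, 29.9 and 32.8 in DDC biliary cells and 1.71, 0.00 and 1.68 in DDC hepatocytes. Untreated biliary cells held 17.4, 22.5 and 13.7 and untreated hepatocytes 9.92, 3.30 and 8.52, from 6 reads in all. The 3 DDC groups did not overlap, with reprogrammed cells in between. The log2 difference from DDC hepatocytes was 2.78 ± 0.41 (adjusted p = 5.33e-06) in reprogrammed cells and 4.13 ± 0.38 (adjusted p = 3.61e-10) in DDC biliary cells. With DDC hepatocytes this low, both sizes depend in part on the 1 added. Reprogrammed cells fell by 1.34 ± 0.29 relative to DDC biliary cells (adjusted p = 0.00265), a call that ended without reprogrammed library 1 (adjusted p = 0.0512) and without weights (adjusted p = 0.636).

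Downstream of Ccne1, 5 regions between 20.6 and 36.6 kb from the gene were each higher in at least 1 of the comparisons with DDC hepatocytes. In the region at 20.6 kb (38076855 to 38077983), reprogrammed cells had 23.3, 20.1 and 38.1 nuclear RPM and DDC biliary cells 21.1, 14.9 and 24.5, against 9.82, 6.70 and 10.1 in DDC hepatocytes and 1.51, 5.33 and 1.14 in untreated biliary cells. DDC biliary cells exceeded untreated biliary cells there by 2.68 ± 0.37 (adjusted p = 1.77e-06), which passed under all 24 alternatives. The region at 29.2 kb (38068452 to 38069114) held 5.04, 1.42 and 4.20 in reprogrammed cells, 13.3, 3.30 and 13.0 in DDC biliary cells and 0 reads in DDC hepatocytes. Both comparisons with DDC hepatocytes passed (adjusted p = 0.00426 for reprogrammed cells from 80 reads and 5.59e-06 for DDC biliary cells), but against a group at 0 the fitted size depends on the 1 added and no fold is given. Its difference between DDC and untreated biliary cells was 2.78 ± 0.45 (adjusted p = 2.06e-05), with 288 reads in the DDC libraries and 4 in the untreated ones. The 2 strongest regions, at the promoter (38106552 to 38108576) and 13.3 kb downstream (38082893 to 38086452), passed in none of the 7 comparisons. The promoter region averaged 79.9 ± 14.2 in reprogrammed cells, 71.8 ± 1.81 in DDC biliary cells and 82.2 ± 20.2 nuclear RPM in DDC hepatocytes. With only the body and 1 kb around its ends, the Ccne1 difference was -0.03 (adjusted p = 0.936) for reprogrammed cells and -0.17 (adjusted p = 0.479) for DDC biliary cells against DDC hepatocytes.

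**Figure D2:**
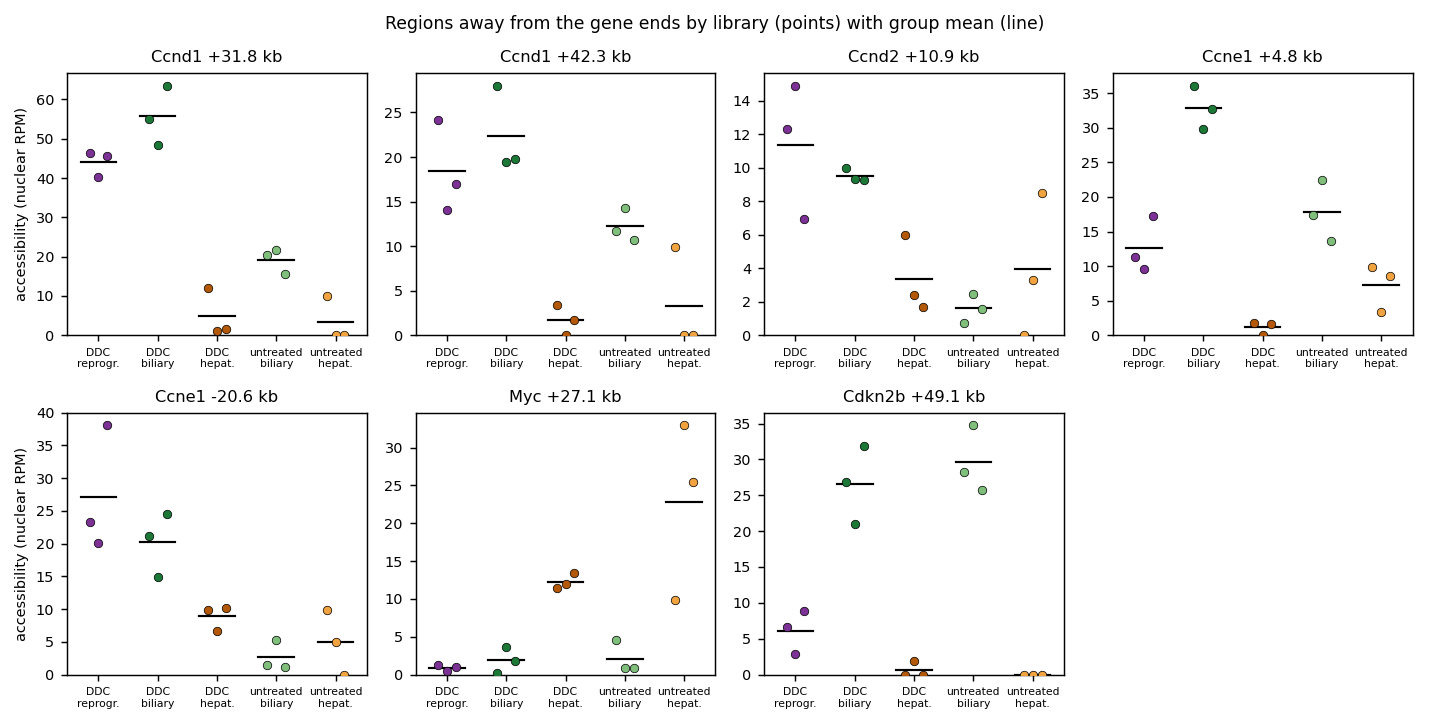
Accessibility in nuclear RPM (linear axes from 0) of 7 regions outside a gene body and its ends, those named for passing in most comparisons of their gene whose mean reached 10 in a group; plus signs give kb beyond the higher-coordinate end of the gene and minus signs kb before the lower-coordinate end. Points are libraries and lines group means: the Ccnd1 region at 31.8 kb and the Ccne1 region at 4.76 kb have their lowest group means in the hepatocyte groups, the Myc region at 27.1 kb has its highest there, and the Cdkn2b region at 49.1 kb holds 21.0 to 34.8 in the biliary libraries and at most 8.83 elsewhere.

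Myc (gene ID 17869, chromosome 15, 61985341 to 61990361), which encodes the transcription factor c-Myc, passed in none of the 7 comparisons as a sum. Its level was 174.4, 156.2 and 141.9 nuclear RPM in reprogrammed cells, 116.7, 142.9 and 121.8 in DDC biliary cells and 165.2, 188.7 and 139.3 in DDC hepatocytes. Untreated biliary cells had 168.5, 123.4 and 149.2 and untreated hepatocytes 208.2, 135.5 and 178.8, and every group overlapped with its neighbour in order of means. The difference between reprogrammed and DDC biliary cells was 0.31 ± 0.11 (adjusted p = 0.11, but 0.0226 without DDC biliary library 2). That between DDC biliary cells and DDC hepatocytes was -0.36 ± 0.15 (adjusted p = 0.0549), and it passed with edgeR (adjusted p = 0.0365), without DDC biliary library 2 (adjusted p = 0.0135) and without DDC hepatocyte library 3 (adjusted p = 0.0055). It also passed with untreated biliary library 1 (adjusted p = 0.0486) or 2 (adjusted p = 0.0458) left out.

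A pair of regions near Myc moved in opposite directions. The region 27.1 kb beyond its higher-coordinate end (chromosome 15, 62017030 to 62017873) held 1.32, 0.407 and 1.05 nuclear RPM in reprogrammed cells and 0.192, 3.69 and 1.76 in DDC biliary cells, against 11.5, 12 and 13.4 in DDC hepatocytes. It was low in untreated biliary cells too (4.53, 0.820 and 0.911) and reached 9.92, 33.0 and 25.5 in untreated hepatocytes, so every hepatocyte library exceeded every other library. It fell by 2.82 ± 0.56 in reprogrammed cells (adjusted p = 0.000266) and by 2.42 ± 0.53 in DDC biliary cells (adjusted p = 0.000281) relative to DDC hepatocytes. The region 11 kb before the lower-coordinate end (61974073 to 61974700) held 7.67, 5.8 and 2.94 in reprogrammed cells and 3.46, 4.27 and 4.10 in DDC biliary cells, against 0.854, 0.958 and 0.00 in DDC hepatocytes and 0.00, 0.00 and 0.456 nuclear RPM in untreated biliary cells. Its difference was 2.0 ± 0.47 (adjusted p = 0.00133) for reprogrammed cells and 1.68 ± 0.44 (adjusted p = 0.00181) for DDC biliary cells against DDC hepatocytes, and 2.12 ± 0.38 (adjusted p = 7.42e-05) between DDC and untreated biliary cells. These 5 calls passed under all 24 alternatives. The region over the gene itself (61983155 to 61989316, 69.7% of the mean sum) passed in no comparison.

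Another Myc region, 35.0 kb before the gene (61950063 to 61950560), held 2.69, 1.94 and 1.37 nuclear RPM in DDC biliary cells, against 3.78, 7.38 and 7.06 in untreated ones. It fell by 1.22 ± 0.44 (adjusted p = 0.0465), but this ended under 13 of 24 alternatives, among them leaving out DDC biliary library 1 or 3, untreated biliary library 2 or 3, or 1 of several libraries of other groups (adjusted p 0.0503 to 0.219).

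Cdkn1a (gene ID 12575, chromosome 17, 29090979 to 29100722) encodes p21, which p53 induces and which arrests the cycle. Its level was 99.4, 99.1 and 107.8 nuclear RPM in reprogrammed cells, against 72.6, 72.0 and 90.2 in DDC biliary cells and 85.4, 93.9 and 83.9 in DDC hepatocytes. Untreated biliary cells had 82.0, 78.7 and 65.6 and untreated hepatocytes 79.3, 69.4 and 63.9, so each reprogrammed library exceeded each library of the other 4 groups. The difference between reprogrammed and DDC biliary cells was 0.39 ± 0.12 (adjusted p = 0.0432). It ended under 16 of 27 alternatives, including every reprogrammed library left out (adjusted p 0.0508 to 0.177), DDC biliary library 1 (adjusted p = 0.168) or 2 (adjusted p = 0.0898) left out and each untreated hepatocyte library left out (adjusted p 0.0506 to 0.0515), and edgeR gave an adjusted p of 0.306. The difference between reprogrammed cells and DDC hepatocytes was 0.22 ± 0.17 (adjusted p = 0.369).

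The region inside Cdkn1a that covers 1 of its RefSeq promoters (chromosome 17, 29093308 to 29096037) held 75.5% of the mean sum, with 73.5, 81.8 and 73.2 nuclear RPM in reprogrammed cells, 59.5, 57.9 and 71.6 in DDC biliary cells and 57.2, 57.9 and 57.9 in DDC hepatocytes. It passed in no comparison. The region over the higher-coordinate end (29098337 to 29101274) averaged 3.85 ± 1.59 in DDC biliary cells and 11.7 ± 3.03 in DDC hepatocytes, and fell by 1.41 ± 0.49 (adjusted p = 0.0163, but 0.0687 without DDC hepatocyte library 2 and 0.214 without weights). A small region 17.4 kb before the gene (29073425 to 29073665) fell by 1.33 ± 0.46 in the same comparison (adjusted p = 0.0154), from 11 reads in DDC biliary cells and 17 in DDC hepatocytes. That call ended without DDC biliary library 1 (adjusted p = 0.0514) or DDC hepatocyte library 2 (adjusted p = 0.193).

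Cdkn2a (gene ID 12578, chromosome 4, 89274473 to 89294619) encodes p16INK4a and, from an upstream promoter, p19ARF. Its level was 39.8, 45.6 and 37.1 nuclear RPM in DDC biliary cells, against 17.8, 14.3 and 15.9 in untreated ones. Reprogrammed cells had 35.7, 36.5 and 24.6, DDC hepatocytes 12.4, 28.3 and 32.7, and untreated hepatocytes 0.00, 13.2 and 42.6 from 18 reads. DDC and untreated biliary cells did not overlap, and the log2 difference was 1.30 ± 0.29 (adjusted p = 0.00145). It ended without library weights (adjusted p = 0.543) and when non-coding genes could take the regions (0.65, adjusted p = 0.187), and passed with each library left out in turn. DDC biliary cells differed from DDC hepatocytes by 0.82 ± 0.37 (adjusted p = 0.0765) and DDC hepatocytes from untreated ones by 1.47 ± 0.79 (adjusted p = 0.425).

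The p19ARF promoter printed above lies in a region (chromosome 4, 89294145 to 89295844) with 70.5% of the Cdkn2a sum. It held 28.3, 27.4 and 18.9 nuclear RPM in reprogrammed cells, 33.0, 35.5 and 28.9 in DDC biliary cells, 6.83, 20.1 and 23.5 in DDC hepatocytes and 8.31, 10.7 and 12.8 in untreated biliary cells. It was higher in DDC than in untreated biliary cells by 1.55 ± 0.35 (adjusted p = 0.00117, but 0.473 without weights). Against DDC hepatocytes it was higher in DDC biliary cells by 1.07 ± 0.40 (adjusted p = 0.0279), which ended without DDC biliary library 1 (adjusted p = 0.0573) or DDC hepatocyte library 1 (0.55, adjusted p = 0.383) or 2 (adjusted p = 0.054). The region of the p16INK4a promoter (89281743 to 89282546) held 2.74, 3.56 and 2.10 in reprogrammed cells and 3.37, 3.11 and 2.93 in DDC biliary cells, against 0.00, 0.479 and 0.00 nuclear RPM in DDC hepatocytes, which held 1 read in all. Its log2(RPM + 1) difference from DDC hepatocytes was 1.72 ± 0.46 (adjusted p = 0.00462) in reprogrammed cells, a call that ended without weights (adjusted p = 0.0728), and 1.86 ± 0.44 (adjusted p = 0.000656) in DDC biliary cells, which passed under all 24 alternatives.

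Cdkn2b (gene ID 12579, chromosome 4, 89306289 to 89311032), next to Cdkn2a, encodes p15INK4b, an inhibitor of the D-type kinases that TGF-beta induces. Its level was 88.2, 85.0 and 81.1 nuclear RPM in reprogrammed cells, 123.4, 110.7 and 115.6 in DDC biliary cells and 62.7, 56.5 and 97.4 in DDC hepatocytes. Untreated biliary cells had 84.6, 94.7 and 86.3 and untreated hepatocytes 64.5, 84.3 and 115.0. DDC biliary cells were the highest group and did not overlap with reprogrammed cells, DDC hepatocytes or untreated biliary cells. They exceeded DDC hepatocytes by 0.72 ± 0.15 (adjusted p = 0.000517), which passed under all 27 alternatives, and untreated biliary cells by 0.39 ± 0.12 (adjusted p = 0.0173). Reprogrammed cells fell by 0.45 ± 0.12 relative to DDC biliary cells (adjusted p = 0.0176). Without weights the call against untreated biliary cells ended (adjusted p = 0.384), as it did without DDC biliary library 1 (adjusted p = 0.0696) and without untreated biliary library 2 (adjusted p = 0.0522) or 3 (adjusted p = 0.098), and that between reprogrammed and DDC biliary cells ended without weights (adjusted p = 0.941) and without reprogrammed library 1 or 3 or DDC biliary library 1 or 3 (adjusted p 0.0507 to 0.0959). edgeR gave adjusted p-values of 0.0719 and 0.094 for these 2 comparisons. The call between reprogrammed and DDC biliary cells also ended with only the body and 1 kb around its ends, and with the nearest of all RefSeq genes. Of 6 tested Cdkn2b regions only 1, with its midpoint 49.1 kb from the gene, was lower in that comparison and 0 were higher.

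A region 49.1 kb upstream of Cdkn2b (chromosome 4, 89359469 to 89360879) set the DDC groups apart. It held 6.69, 2.85 and 8.83 nuclear RPM in reprogrammed cells, 26.8, 21.0 and 31.9 in DDC biliary cells and 0.00, 1.92 and 0.00 in DDC hepatocytes. Untreated biliary cells held 28.3, 34.8 and 25.7, which overlapped with DDC biliary cells, and untreated hepatocytes had 0 reads. Reprogrammed cells thus lay between biliary cells and hepatocytes without overlap, at 23.1% of the DDC biliary mean. Relative to DDC biliary cells they fell by 2.04 ± 0.34 (adjusted p = 0.000216, passing in each leave-one-out fit, but 0.345 without weights), and relative to DDC hepatocytes they were higher by 2.21 ± 0.48 (adjusted p = 0.000623). DDC biliary cells exceeded DDC hepatocytes by 4.25 ± 0.45 (adjusted p = 4.49e-09). The biliary markers moved the same way, with reprogrammed cells between the other DDC groups, and their part in this was not tested. This and the Ccne1 region 4.76 kb upstream were the 2 of 46 tested regions that passed between reprogrammed and DDC biliary cells, both lower. Of all 79075 tested regions 7.55% were called there, 2.58% higher and 4.96% lower. At an unadjusted p under 0.05 (limma) 7 of the 46 differed, 3 higher and 4 lower. With edgeR 2 of the 46 passed and with the replicate block 4. Without library weights neither of the 2 named calls passed.

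The region of the Cdkn2b promoter printed above (89310048 to 89311593) held 71.8% of the sum and averaged 66.8 ± 5.92 in reprogrammed cells, 76.3 ± 5.52 in DDC biliary cells, 55.9 ± 20.3 in DDC hepatocytes and 51.4 ± 5.55 nuclear RPM in untreated biliary cells. DDC biliary cells exceeded untreated ones by 0.57 ± 0.16 (adjusted p = 0.0112, but 0.051 without DDC biliary library 1 and 0.313 without weights). Untreated hepatocytes held 49.6, 66.1 and 102.2 there and overlapped with DDC biliary cells. A region at 40.6 kb (89351058 to 89352179) also followed DDC in biliary cells, with 10.1, 6.79 and 8.89 after DDC against 3.02, 2.05 and 2.51 in untreated cells. The difference was 1.44 ± 0.34 (adjusted p = 0.00187, but 0.0695 without weights). DDC hepatocytes held 7.68, 5.75 and 6.71 in it, and untreated hepatocytes 9.92, 6.61 and 4.26 from 2, 4 and 1 reads. Both hepatocyte groups thus overlapped with DDC biliary cells in this region.

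Mdm2 (gene ID 17246, chromosome 10, 117688875 to 117710758), whose product degrades p53 and which p53 itself induces, was called in none of the 7 comparisons. It had 80.3, 72.6 and 92.7 nuclear RPM in reprogrammed cells, 73.6, 58.0 and 76.9 in DDC biliary cells, 83.7, 61.8 and 72.2 in DDC hepatocytes, 67.3, 66.0 and 67.7 in untreated biliary cells and 24.8, 69.4 and 68.1 in untreated hepatocytes. All neighbouring groups overlapped in order of means. The difference between reprogrammed and DDC biliary cells was 0.24 ± 0.14 (adjusted p = 0.374), and none of its 4 tested regions passed. Its promoter region (chromosome 10, 117708816 to 117711990) averaged 53.9 ± 2.43 in reprogrammed cells, 50.1 ± 6.16 in DDC biliary cells and 48.9 ± 5.86 in DDC hepatocytes.

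Between DDC and untreated hepatocytes 0 of the 8 genes passed with limma, 1 at an unadjusted p under 0.05, and 0 with edgeR, where 0.604% of all genes were called with limma, 0.592% higher and 0.0122% lower. That gene was Ccnd1, at 0.90 ± 0.41 (adjusted p = 0.317). Untreated hepatocytes held 18 to 229 reads per gene over their 3 libraries, so only large changes were detectable there. The effect of DDC in biliary cells minus that in hepatocytes passed for 0 of 8 genes with limma (0 at an unadjusted p under 0.05) and 0 with edgeR, where 0.397% of genes were called, 0.153% higher and 0.244% lower. Between untreated biliary cells and hepatocytes 1 of 8 genes passed, Ccnd1, where 16.8% of genes were called, 12.2% higher and 4.58% lower. On the deposited scale all 8 genes passed in both comparisons with untreated hepatocytes, where the median log2 difference of all genes was 1.54 for DDC hepatocytes and 1.92 for untreated biliary cells.

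Across the 55 regions, 46 had a mean of 1 nuclear RPM or more and were tested. Regions called in each comparison numbered 13 for reprogrammed cells against DDC hepatocytes (12 higher, 1 lower; 31.6% of all regions were called, 17.4% higher and 14.3% lower), 19 for DDC biliary cells against DDC hepatocytes (15 higher, 4 lower; 47.7%, 26.6% higher and 21.1% lower) and 12 for DDC against untreated biliary cells (10 higher, 2 lower; 20%, 14.3% higher and 5.71% lower). Another 4, all higher, differed between untreated biliary cells and hepatocytes (11.4%, 7.67% higher and 3.7% lower). Between DDC and untreated hepatocytes 0 passed with limma, 5 at an unadjusted p under 0.05 and 3 with edgeR (0.923%, 0.902% higher and 0.0215% lower). For the difference of the DDC effects 0 passed with limma, 4 at an unadjusted p under 0.05 and 2 with edgeR (0.441%, 0.0961% higher and 0.345% lower). The shares called among the 46 regions, 28.3% and 41.3% in the comparisons with DDC hepatocytes and 26.1% between biliary groups, lay near those backgrounds. In at least 1 comparison 18 of 28 tested regions outside the gene bodies passed, against 5 of 11 that touched the 1 kb around a gene end and 1 of 7 inside a body. The shares of all regions called in these classes were not computed, so whether this contrast is particular to the 8 genes was not tested.

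**Figure D3:**
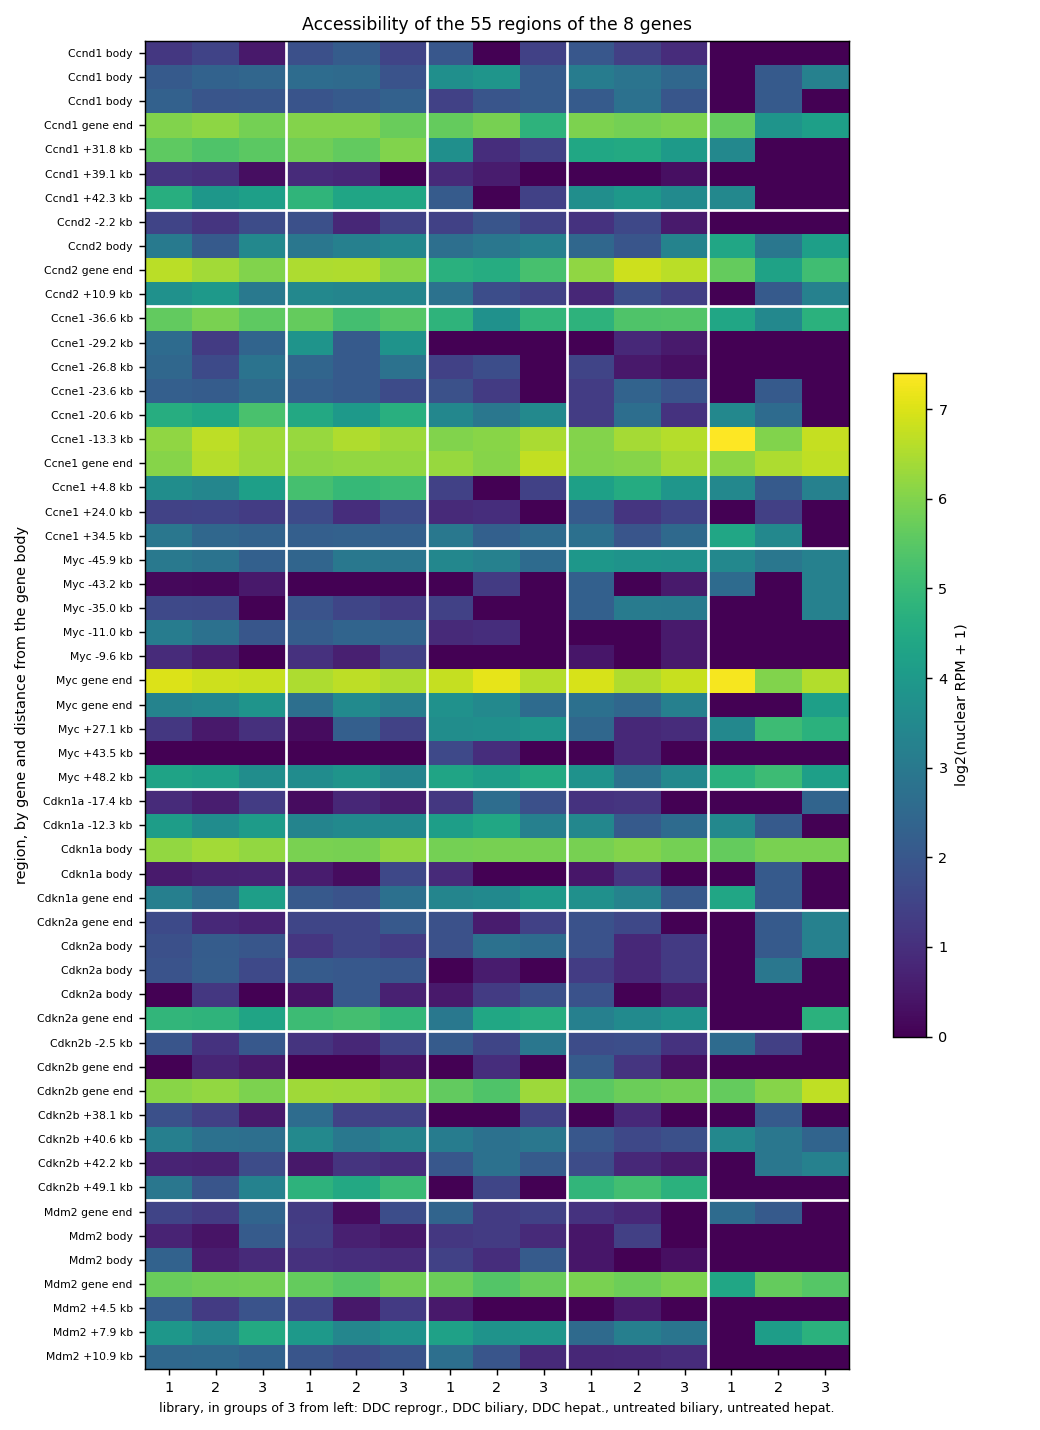
Accessibility as log2(nuclear RPM + 1) of all 55 regions (rows, ordered by gene and position; distances in kb beyond the higher-coordinate end are plus and before the lower-coordinate end minus) in the 15 libraries (columns, 3 a group). The region over the higher-coordinate end of Ccnd2 is dimmer in all 6 hepatocyte libraries (18.2 to 49.6 nuclear RPM, against 63.1 to 113.9 in the others), and the rows of the distal Ccnd1, Ccne1, Myc and Cdkn2b regions change between groups of columns.

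**Figure D4:**
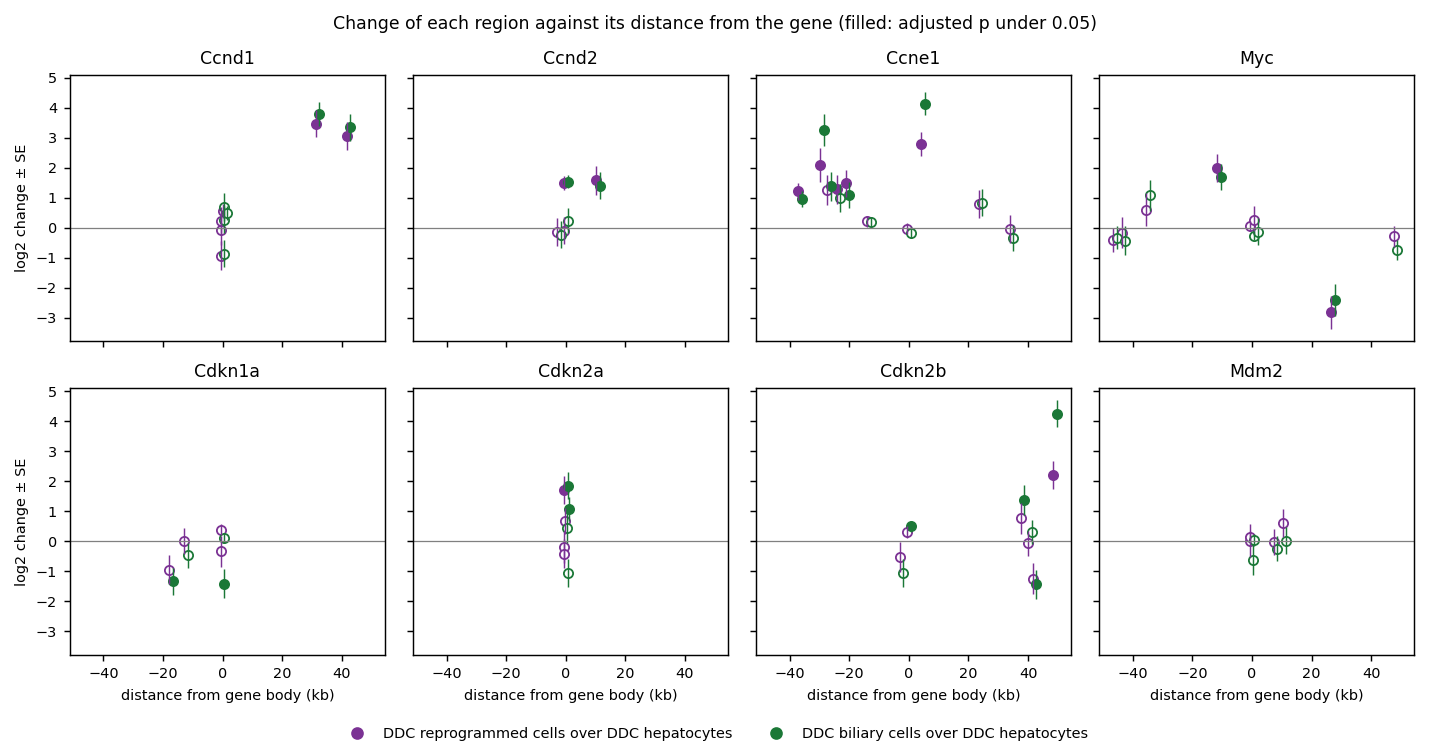
Log2 change ± SE of each tested region on the log2(RPM + 1) scale against the distance of its midpoint from the gene body in kb (0 inside; points of the 2 comparisons are set slightly apart), for reprogrammed cells and DDC biliary cells over DDC hepatocytes; filled points passed at adjusted p under 0.05. The largest changes, up to 4.25 at the Cdkn2b region 49.1 kb away and 4.13 at the Ccne1 region 4.76 kb away, lie outside the bodies. DDC hepatocytes held 0.00, 1.92 and 0.00 nuclear RPM in the first and averaged 1.13 in the second. These sizes therefore depend in part on the 1 added.

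The rest of the pathway was described with 60 listed genes, of which 57 were tested. Between reprogrammed cells and DDC hepatocytes 6 were higher and 1 lower, or 12.3% of those tested, where 27.3% of all genes were called. Between DDC biliary cells and DDC hepatocytes 6 were higher and 5 lower (19.3%, where 40.7% of all genes were called), and between DDC and untreated biliary cells 8 were higher and 11 lower (33.3%, where 27.3% were called). These counts moved with the processing. For reprogrammed cells against DDC hepatocytes they were 25 higher and 0 lower on the deposited scale, 3 and 1 without library weights, 4 and 4 with edgeR, and 1 and 1 without DDC hepatocyte library 2. For DDC biliary cells against DDC hepatocytes they were 27 and 1 on the deposited scale and 3 and 2 without weights. For DDC against untreated biliary cells they were 13 and 2 on the deposited scale, 3 and 1 without weights, 6 and 4 with edgeR, 6 and 6 without untreated biliary library 2 and 7 and 5 without untreated biliary library 3. None passed between reprogrammed and DDC biliary cells (limma; 3 at an unadjusted p under 0.05, 0 with edgeR). The median log2 change of the list was 0.10, 0.03 and -0.08 in the first 3 comparisons, against 0.12, 0.07 and -0.02 over all genes.

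Among the other G1/S genes, Ccnd3, the third D-type cyclin, followed Ccnd1 and Ccnd2. It averaged 150.3 ± 12.2 nuclear RPM in reprogrammed cells and 167.2 ± 8.75 in DDC biliary cells, against 104.1 ± 1.74 in DDC hepatocytes (SD, n = 3). Its differences from DDC hepatocytes were 0.52 ± 0.14 (adjusted p = 0.00841, but 0.0785 without DDC hepatocyte library 2) in reprogrammed cells and 0.68 ± 0.13 (adjusted p = 0.00018) in DDC biliary cells. Cdk6, a kinase partner of the D-type cyclins, averaged 183.5 ± 26.7 in DDC biliary cells and 92.7 ± 11 in untreated ones, a difference of 0.98 ± 0.12 (adjusted p = 3.41e-06) that passed under all 27 alternatives. E2f3, an activating E2F factor, fell by 0.51 ± 0.12 in DDC biliary cells relative to DDC hepatocytes (adjusted p = 0.00128), with 143.8 ± 10.2 nuclear RPM in DDC biliary cells and 205.5 ± 16.2 in DDC hepatocytes. That call ended only on the deposited scale (adjusted p = 0.786). In all, 2 of the 12 listed G1/S genes were higher in reprogrammed cells than in DDC hepatocytes (16.7%, where 16.7% of all genes were higher). In biliary cells after DDC 2 rose and 2 fell (16.7% each, where 14.2% of all genes were higher and 13.1% lower). These shares lay near those of all genes. Of 3 other CDK inhibitors tested, 0 were higher and 1 lower in DDC biliary cells than in DDC hepatocytes. This was Cdkn2c, at 101.9 ± 12.7 against 137.1 ± 7.58 nuclear RPM (-0.43 ± 0.15, adjusted p = 0.0211), opposite in direction to Cdkn2b. That call ended under 7 of 27 alternatives. Cdkn1c was higher in untreated biliary cells than in untreated hepatocytes (1.45 ± 0.49, adjusted p = 0.0425), which ended under 6 of 26.

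In the Myc network, Mycl, a paralogue of Myc, averaged 76.7 ± 6.61 in DDC biliary cells and 42.3 ± 8.22 nuclear RPM in untreated ones (0.86 ± 0.13, adjusted p = 2.54e-05, under all 27 alternatives). Mnt, which competes with Myc for its partner Max, averaged 355.8 ± 20.3 in DDC biliary cells, against 254.4 ± 38.6 nuclear RPM in DDC hepatocytes (0.49 ± 0.13, adjusted p = 0.00293). Of the 10 listed genes 2 were higher in reprogrammed cells than in DDC hepatocytes and 0 lower (20% higher, where 16.7% of all genes were higher and 10.6% lower).

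On the p53 axis, Pmaip1, which encodes the death factor Noxa, averaged 124.4 ± 14.6 in DDC biliary cells, against 57.5 ± 9.62 in untreated biliary cells (1.11 ± 0.14, adjusted p = 3.07e-06, under all 27 alternatives). Phlda3, a p53 target that restrains AKT, averaged 55.8 ± 6.53 in reprogrammed cells, against 19.2 ± 3.52 nuclear RPM in DDC hepatocytes (1.5 ± 0.36, adjusted p = 0.00271, but 0.245 with only the body and 1 kb around its ends and 0.0556 without weights). Btg2, an antiproliferative p53 target, fell by 0.84 ± 0.16 in reprogrammed cells (adjusted p = 0.000309), with 279.7 ± 45.0 against 501.4 ± 91.9 in DDC hepatocytes, though not on the deposited scale (adjusted p = 0.0824). Of the 16 listed genes, 4 rose and 3 fell in biliary cells after DDC (25% and 18.8%, where 14.2% of all genes were higher and 13.1% lower). Among these calls Gadd45a ended under 16 of 25 alternatives, Sesn1 under 8 of 27 and Eda2r under 7 of 27. Bbc3 ended under 3 of 27, Phlda3 under 2 and Trp53inp1 under 1.

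Of 16 tested genes of S and M phase 0 passed between reprogrammed cells and DDC hepatocytes, where 27.3% of all genes were called. Between DDC and untreated biliary cells 0 rose and 4 fell, or 25%, where 13.1% of all genes were lower. All 4 calls (Ccna2, Ccnb1, Mcm3 and Mcm5) ended without library weights. Those of Ccna2, Ccnb1 and Mcm5 also ended on the deposited scale, and those of Ccna2 and Mcm5 with edgeR. Mcm3, a subunit of the replicative helicase, averaged 39.0 ± 3.61 in DDC biliary cells and 60.0 ± 9.05 in untreated ones (-0.60 ± 0.15, adjusted p = 0.00303, but 0.172 without weights). Top2a, the topoisomerase of dividing cells, averaged 30.5 ± 2.26 in DDC biliary cells and 15.8 ± 6.59 in DDC hepatocytes (0.99 ± 0.28, adjusted p = 0.00609, but 0.0729 without weights).

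The genes whose group means ran most like those of a member were named by the root mean square difference over the 5 group means of log2(RPM + 1), each profile centred on its own mean, among 14745 genes. For Ccnd1 they were Slc29a4, Ddr1 and Lrfn5 (0.0223 to 0.0295, where the median of all genes was 0.734), and for Ccnd2 Mamld1, Col8a2 and Plxna1 (0.0554 to 0.0731, median 0.61). For Ccne1 they were Fgd1, Sox21 and Phf7 (0.0335 to 0.0366, median 0.412), and for Myc Dusp3, Pelo and Xpr1 (0.0159 to 0.0311, median 0.416). Cdkn1a was closest to Rexo1, Mypn and Zfp428 (0.0329 to 0.0396, median 0.395), Cdkn2a to Zcchc4, Atp2a3 and Cntfr (0.0869 to 0.124, median 0.77), Cdkn2b to Car13, Ncoa6 and Ank3 (0.0515 to 0.0639, median 0.434) and Mdm2 to Glmn, Dennd4a and Clcn2 (0.0183 to 0.0346, median 0.398). With 5 points and 14745 candidates these are descriptions of the order of groups.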

How the data were processed

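The deposited matrix held 93217 regions by 15 libraries, and 2 regions lay on the mitochondrial chromosome. The submitters' processing notes name Bowtie2, SAMtools, MACS2, bedtools and build mm10; the sources used here give no versions or settings, and nothing on merging of regions or on duplicates. The authors' file labels its values TPM. They behave as RPM, the reads of a region per 1000000 reads in all regions of the library, as deposited: each column sums to 1000000, and values were whole multiples of 1 read whatever the region's width. The planned test for library-scaled values was kept. Values were rescaled to reads in nuclear regions, because mitochondrial shares differed between groups.

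Genes took the regions in their body or nearest to it within 50 kb (RefSeq table, GRCm38.p6), and these were summed. Region starts are as the file gives them. The main test was limma-trend (limma 3.58.1, R 4.3.3) on log2(nuclear RPM + 1) over all 15 libraries, with 1 weight a group (3.31 for DDC biliary cells, 0.16 for untreated hepatocytes), features with a mean of 1 or more (16382 genes, 79075 regions), two-sided, Benjamini-Hochberg adjustment within each comparison, adjusted p under 0.05. Recovered reads were tested with edgeR 4.0.16 as an alternative. Tables were handled in R with the package data.table, version 1.17.8, and in Python 3.11.15 with pandas 2.3.3 and numpy 2.4.6; figures were drawn with matplotlib 3.10.9. Other alternatives were the deposited scale, TMM factors, a pseudocount of 5, no filter, no weights, only the groups compared, the replicate number as a block, each library left out, a reach of 100 kb, the body and 1 kb around its ends, and the nearest of all RefSeq genes; leaving out the untreated hepatocyte libraries was added after seeing the data.

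The genes, pathway lists and marker lists were chosen with earlier results of these data known. Named were all 8 genes and the Ccne1 promoter region (chosen after its values were seen). Of each gene, the region with the highest mean and up to 3 that passed in most comparisons were selected. The Cdkn2b region starting at 89348910 was selected but is not described. Of each pathway list, up to 2 genes per comparison with the largest change among those that passed were selected. Not all of these are described. Among those left out, Cdk4 changed more than Ccnd3 between reprogrammed cells and DDC hepatocytes (0.60 ± 0.21). Mxd4 changed more than Mnt between DDC biliary cells and DDC hepatocytes (1.64 ± 0.44). Depth in nuclear reads limits the precision of each value; reads were not identified as separate molecules.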

Additional observations from a re-analysis of the deposited data

Results flagged for a closer look

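At the Ccne1 region 4.76 kb upstream of the gene (chromosome 7, 38111773 to 38112721), the DDC and untreated libraries lay in opposite order in biliary cells and hepatocytes, though neither difference passed. The region averaged 32.9 nuclear RPM in DDC biliary cells and 17.9 in untreated ones, and each DDC library exceeded each untreated one (log2 difference 0.87 ± 0.33, limma, adjusted p = 0.0564). It averaged 1.13 in DDC hepatocytes and 7.24 in untreated hepatocytes, and each DDC library was below each untreated one (-1.98 ± 0.79, limma, adjusted p = 0.265). The hepatocyte values rest on 6 reads in each group, with 2 reads in each untreated library. Of the 8 genes and their regions with the highest mean or passing in most comparisons, only this region showed such an order. The share of all regions that show it was not computed. The difference between the 2 effects was 2.85 ± 0.85 on the log2 scale (limma, adjusted p = 0.117) and passed without library weights (adjusted p = 0.0406).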

How the results depend on the processing

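Of 14 gene calls 3 passed under every alternative, and of 43 calls of named regions 21. The number of the 8 genes called moved as follows. For reprogrammed cells against DDC hepatocytes (3) it was 7 on the deposited scale and 1 with the body and 1 kb around its ends (2 to 4 with a library left out). For reprogrammed against DDC biliary cells (2) it was 1 on the deposited scale, with TMM, with only the groups compared and without the untreated hepatocyte libraries, and 0 without weights, with edgeR, with the body and 1 kb and with the nearest of all genes (0 to 2). For DDC biliary cells against DDC hepatocytes (4) it was 2 with the body and 1 kb (3 to 6). For DDC against untreated biliary cells (4) it was 0 without weights and 2 with edgeR, the body and 1 kb, and the nearest of all genes (2 to 4). For DDC against untreated hepatocytes (0) and for untreated biliary cells against hepatocytes (1) it was 8 on the deposited scale; the second was 2 with a pseudocount of 5, without weights and with edgeR (0 to 2). The difference of DDC effects (0) was 4 on the deposited scale.

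With the body and 1 kb around its ends, directions turned for Ccnd1 between DDC and untreated biliary cells (-0.0226) and for Ccne1 in reprogrammed (-0.0282) and DDC biliary cells (-0.165) against DDC hepatocytes. On the deposited scale they turned, between DDC and untreated hepatocytes, for Ccnd2 (1.24), Ccne1 (1.29), Myc (1.5), Cdkn2b (1.26) and their regions starting at 127147536 (1.30), 38082893 (1.03) and 89310048 (1.16); between untreated biliary cells and hepatocytes for Ccne1 (1.76), Myc (1.65) and the regions starting at 38082893 (1.48) and 89310048 (1.40); and in the difference of effects for the Cdkn1a region starting at 29093308 (-1.34). That scale counts mitochondrial reads, which were 76.6% in untreated hepatocytes. The cause of the other changes was not tested.

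With the replicate block 3, 2, 5, 4, 0, 1 and 0 genes and 15, 4, 21, 11, 0, 5 and 0 of their regions (13, 2, 19, 12, 0, 4 and 0 without it) were called in the 7 comparisons, in the order above; the added gene was Myc between DDC biliary cells and DDC hepatocytes (adjusted p = 0.0428). Correlations of deviations were over 0.1 for 8 of 30 same-number pairs (-0.137 to 0.198). Within the 3 DDC groups all 9 were above 0 (0.0211 to 0.198) and 6 over 0.1, but in no pair of groups were all 3 over 0.1, so the block was kept as an alternative. Libraries correlated best with their own number in 15 of 18 choices within the DDC groups and 27 of 60 in all. Between reprogrammed and DDC biliary cells this held in 6 of 6. Of 18 pairs with different numbers within the DDC groups, 13 were below 0. Whether DDC libraries of the same number share an animal was not tested, and the main test treats them as separate. The 201705 to 605309 nuclear reads of untreated hepatocytes limit every comparison with them.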
